A study of Crinum x powellii with 21 samples.

Results

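Root was compared with bulb in Crinum x powellii 'Album', an ornamental amaryllid, using the 2 libraries titled as root (replicates 1 and 3) and the 3 titled as bulb (replicates 1 to 3). These 5 libraries were chosen by title alone from the 21 RNA-seq libraries of polyadenylated RNA in the series. All 5 came from the Album variety, from purchased bulbs that were stored cold for 4 weeks at 4 °C, followed by 24 h at room temperature, before the organs were frozen. No treatment was applied to either organ. The labels do not say whether libraries of an organ came from separate plants, so p-values measure only the spread between libraries, which may be technical. In the test of each gene this spread was estimated over all 10 organ libraries, including leaves and basal plate. Both organs had their RNA isolated with a CTAB buffer.

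The series also holds leaves (n = 3), basal plate (n = 2) and callus in 4 culture conditions (n = 11). Callus was raised on pieces of bulb scale with 2 or 4 mg/L of the synthetic auxin 2,4-D, on a medium that also held the cytokinins BAP and kinetin, in light for 14 h per day or in darkness for 24 h. A column kit was used for callus RNA, so in callus the tissue and the isolation method cannot be told apart. The titles of callus libraries at 2 mg/L carry a 3, and the doses given here are those of the treatment label. The other 16 libraries are used below to show where genes that differ between root and bulb are expressed elsewhere.

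As background, the bulb of an amaryllid is a storage organ made of fleshy scale leaves that hold starch and other reserves, while roots grow from the basal plate below it and take up water and minerals. Amaryllids are known for their alkaloids, which are made and stored in several organs. Callus is unorganised tissue that cells of an explant form in culture under auxin. The assembled genes are known only by Trinity-style identifiers with no gene names beside them. No marker of either organ was therefore looked up, and the genes are described by their levels.

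The rounded gene counts added up to 37825236 and 37894903 in the root libraries and to between 29530780 and 41784068 in the bulb libraries. Root libraries held 32686 and 30512 genes with at least 1 CPM, the usual unit of a gene's count relative to its library's total, and bulb libraries held 28780, 28677 and 30495. The means were 31599 ± 1540 (SD, n = 2) in root and 29317 ± 1020 (SD, n = 3) in bulb. The exact two-sided permutation test gave p = 0.2, the smallest value that 2 against 3 libraries allow. At this limit root replicate 3 lay just above bulb replicate 3. At 0.5 CPM the organs overlapped, with 39414 genes in root replicate 3 and 40257 in bulb replicate 3 (exact permutation test, p = 0.4). The counts were slightly less concentrated in root, where the 100 most abundant genes took 10.5% and 10.7% of the library, than in bulb, where they took 11.9% to 12.3%. The organs did not overlap in this share (exact permutation test, p = 0.2), and the design cannot reach 0.05. This share and the number of genes at 1 CPM formed 1 family of 2 tests, and the adjusted p of each was also 0.2.

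The organs shared most of what they expressed. Of the 28484 genes with at least 1 CPM in both root libraries, 86.4% also reached 1 CPM in all 3 bulb libraries. Of the 26706 genes at that level throughout bulb, 92.1% reached it in both root libraries. Of the 100 most abundant genes of each organ, 58 were the same genes. Across the 100919 tested genes, which are not independent replicates, Pearson's r of log2(CPM + 1) lay between 0.992 and 0.993 within bulb, was 0.977 between both root libraries and lay between 0.933 and 0.958 across the organs. Bulb libraries thus lay closer to each other than the root libraries did. Root replicate 3 lay nearer to every bulb library, with r of 0.955 to 0.958, than root replicate 1, with 0.933 to 0.937.

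Root differed from bulb in 8661 of 100919 tested genes, or 8.58%, at an FDR under 0.05 (edgeR's quasi-likelihood test with Benjamini-Hochberg adjustment). These genes are termed called. Of them, 5331 (5.28% of the tested genes) were higher and 3330 (3.3%) were lower in root. In bulk tissue, fewer cells that express a gene and less of its RNA per cell cannot be told apart. The changes were large: 8297 of the called genes changed at least 2-fold, 5557 at least 4-fold and 2640 at least 16-fold. The median absolute log2 fold change was 2.97 among the genes higher in root and 2.15 among those lower in root. The smallest called change was 0.75 on the log2 scale. Libraries of the organs did not overlap for 5291 of the genes higher in root (5.24% of the tested genes) and for 3326 of those lower in root (3.3%).

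The balance between rises and falls shifted with abundance. Among tested genes with a mean of 1 to 10 CPM over both organs, 12.0% were called higher and 6.11% lower in root. Between 10 and 100 CPM these shares were 9.64% and 7.63%. Among the 2121 genes at or above 100 CPM, only 7.69% were called higher, and 13.2% were called lower. The median log2 fold change of these 2121 genes was -0.26. The strong genes among them, defined below, went the other way, with 77 higher and 41 lower in root. Over all tested genes the log2 fold change had a median of 0.06 under the TMM scaling used and 0.20 under library totals, where 6418 genes were called higher and 2909 lower.

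**Figure D1:**
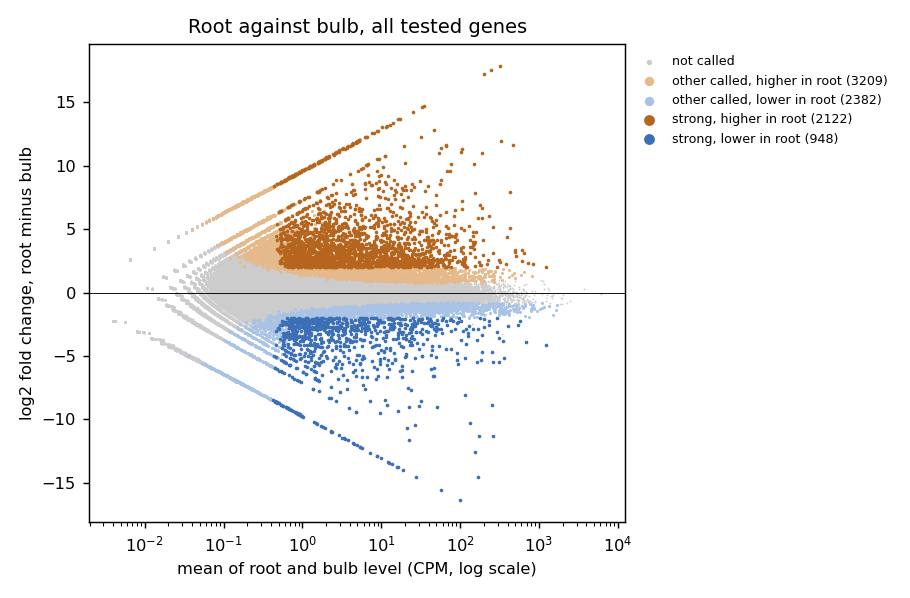
Log2 fold change (root minus bulb) of each tested gene against its mean level in root and bulb in CPM, on a log axis; grey points were not called, pale points were called and dark points are the strong genes defined in the text. The 2122 strong genes higher in root outnumber the 948 strong genes lower in root, while above 100 CPM more called genes lie below the line than above it; the oblique rows of points at the edges are genes with 0 or few counts in an organ, and tested genes at 0 in both organs are not drawn.

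How many genes were called depended on which libraries were in the fit. Leaving out either root library leaves root without a replicate, so the spread then comes from the other organs alone. The loss of a replicate and the effect of the particular library cannot be told apart in these counts. The count was 4092 (2413 higher, 1679 lower) without root replicate 1 but 8528 without root replicate 3. It was 4563, 5160 and 5699 without bulb replicates 1, 2 and 3. Of these, 2785 and 3046 were higher in root without bulb replicates 1 and 2, and the number lower was 1778, 2114 and 2121 without bulb replicates 1, 2 and 3. The fit shares its estimate of spread with leaves and basal plate. It called 13065 genes without basal plate replicate 1, of which 5398 were lower, and 13110 without basal plate replicate 2, of which 5440 were lower. Pearson's r between the 2 basal plate libraries was 0.941, against at least 0.977 within each other organ. On the root and bulb libraries alone 11451 of 58948 tested genes were called. In every one of these fits more genes were higher than lower in root. A total of 2750 genes, 1803 higher and 947 lower in root, were called in the same direction in all 10 fits that leave out 1 organ library, which is 31.8% of the called genes.

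**Figure D2:**
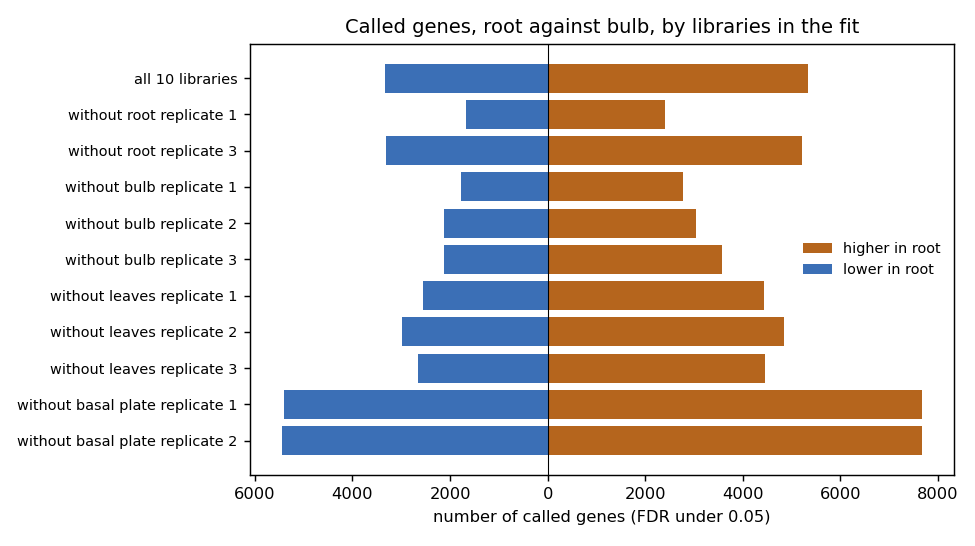
Number of called genes in the comparison of root with bulb, with all 10 organ libraries and with each left out in turn; bars to the right count genes higher in root and bars to the left genes lower in root. The count fell to 4092 without root replicate 1, rose to 13110 without basal plate replicate 2, and the bar for genes higher in root is the longer one in each fit.

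The strongest changes were collected as strong genes: called, changed at least 4-fold in the fit, with 1 CPM or more in each library of the higher organ, and with no overlap between the libraries of both organs. There were 2122 strong genes higher in root (2.1% of the tested genes) and 948 lower in root (0.939%). Of the first, 777 changed at least 16-fold, and of the second 336 did. When libraries were left out, 64.8% of the strong genes higher and 59.4% of those lower in root were called in all 10 such fits. This exceeds the 31.8% of all called genes, which include the strong ones. Strong genes were chosen on these same libraries for large changes without overlap, which favours such a result by construction. Their median level was 5.93 CPM in root for those higher there and 4.2 CPM in bulb for those lower in root, where the medians of all tested genes were 0.317 and 0.243 CPM. At or above 100 CPM there were 140 and 62.

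Replicates of the higher organ differed more among the strong genes than among tested genes with at least 1 CPM throughout that organ. Those tested genes include the strong ones, which were chosen on these same libraries. Of the 2122 strong genes higher in root, 725 (34.2%) were over 2-fold higher in root replicate 1 than in root replicate 3, and 208 (9.8%) were over 2-fold higher in replicate 3. Among all 30141 tested genes with at least 1 CPM in both root libraries, these shares were 5.93% and 8.72%. Among the 1517 genes at that level that were called higher in root but not strong, they were 10.0% and 3.96%. The median ratio of root replicate 1 to replicate 3 was 1.48 for the strong genes, 1.16 for those 1517 genes and 0.889 for the 30141 genes. Of the 948 strong genes lower in root, 97 (10.2%) varied over 2-fold between the highest and lowest bulb library, against 3.76% of the 29037 tested genes with at least 1 CPM in all bulb libraries. The median ratio of the highest to the lowest bulb library was 1.4 and 1.27 in these sets. The labels give nothing that sets the root libraries apart, and what part the difference between them has in the results was not tested.

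The 20 largest rises and falls were ranked by fitted fold change among strong genes that reached 10 CPM throughout the higher organ. They were close to all-or-none. Such a ranking favours genes with 0 or few counts in the lower organ, so this holds largely by construction. Candidates numbered 725 for the rises and 337 for the falls. Of the 20 largest rises, 16 had 0 counts in all 3 bulb libraries, and no bulb library exceeded 0.402 CPM for any of the 20. Of the 20 largest falls, 17 had 0 counts in both root libraries, and the highest level in root was 0.106 CPM. Root replicate 1 exceeded root replicate 3 over 2-fold for 15 of the 20 rises, while 19 of the 20 falls stayed within 2-fold across the bulb libraries. None of the 20 rises reached 1 CPM in all 3 leaf libraries and 1 did so in both basal plate libraries, yet 8 reached 10 CPM in all 6 light-grown callus libraries. Of the 20 falls, 10 reached 1 CPM in all leaf libraries and 11 reached 10 CPM in all 3 callus libraries grown in light with 2 mg/L.

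**Figure D3:**
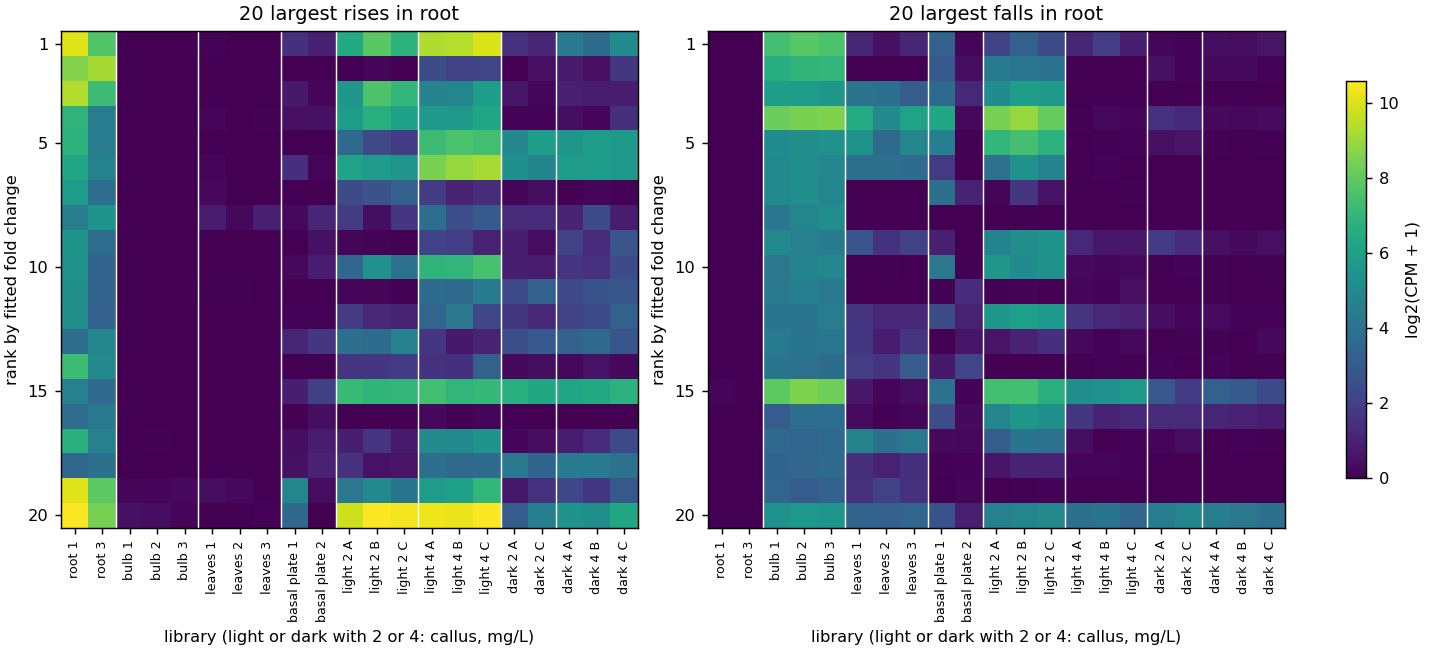
Level of the 20 largest rises (left) and 20 largest falls (right) in root in each of the 21 libraries, as log2(CPM + 1) by library total, with 1 gene per row, 1 library per column and white lines between groups. The rises are dark in bulb and leaves and bright again in many callus libraries, 8 of the 20 reaching 10 CPM throughout light-grown callus; the falls are dark in root and bright in bulb, and 11 of the 20 reach 10 CPM throughout callus in light with 2 mg/L.

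The largest rise was that of Crpow_TRINITY_DN8528_c2_g1, a gene of unknown identity with 2 assembled isoforms. It had 1210 and 268 CPM on TMM-scaled library sizes in root replicates 1 and 3 and 0 counts in each of the 3 bulb libraries. Against a floor of 3 counts over the bulb group it was at least 20801-fold higher in root (adjusted p = 4.57e-07). This bound was 7565-fold without root replicate 1 and 34038-fold without root replicate 3, and 13675-fold and 12513-fold without bulb replicates 1 and 3, which raises the floor. Salmon, the other quantifier, also put 0 counts in bulb replicates 1 and 3 but 3 counts in bulb replicate 2. By library total it had 0 to 0.0634 CPM in leaves and 0.926 to 1.69 CPM in the basal plate, from which roots grow. The only other tested gene of its assembly component was not called (log2 fold change -0.76, adjusted p = 0.69), at 0.0467 CPM in root and 0.0816 CPM in bulb. In callus the largest rise had 652 to 1020 CPM in light with 4 mg/L and 88.1 to 237 CPM in light with 2 mg/L. In darkness it had 12.3 to 33.9 CPM with 4 mg/L and 1.18 to 1.82 CPM with 2 mg/L. All 3 callus libraries in light with 4 mg/L lay between the root libraries, which by library total had 1070 and 211 CPM.

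The most abundant strong gene of root was Crpow_TRINITY_DN5347_c0_g1, also with 2 isoforms. It had 1390 and 3580 CPM in root replicates 1 and 3 and 623, 541 and 644 CPM in bulb replicates 1 to 3, on TMM-scaled library sizes. Unlike the largest rise, it was well expressed in both organs, and here root replicate 3 was the higher one. Its log2 fold change of 2.04 (SE 0.35, adjusted p = 0.00131) lay just inside the limit of 4-fold, and it was 1.26 without root replicate 3 and 2.51 without root replicate 1. Elsewhere it had 121 to 208 CPM in leaves and 297 to 416 CPM in the basal plate by library total. Callus in light with 2 mg/L had 870 to 2340 CPM, above every leaf and basal plate library, and the other callus libraries had 89.6 to 413 CPM.

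The largest fall was that of Crpow_TRINITY_DN5435_c0_g2, with 2 isoforms. It had 237, 309 and 240 CPM on TMM-scaled library sizes in bulb replicates 1 to 3 and 0 counts in both root libraries, by either quantifier. With the floor of 3 counts over the root group it was at least 5528-fold lower in root (adjusted p = 6.03e-05), a bound of 2601-fold and 2927-fold without root replicates 1 and 3, which raises the floor. Outside bulb no library came near these levels. By library total, leaves had 0.392 to 1.21 CPM, basal plate replicate 1 had 9.04 CPM and replicate 2 had 0.142 CPM. Callus ranged from 0.0653 CPM in darkness to 8.64 CPM in light with 2 mg/L. A second tested gene of the same assembly component was also called lower in root (log2 fold change -10.2, adjusted p = 0.000435), at 3.74 CPM in bulb and 0 in root. Reads of 2 such genes could have been split between them.

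The most abundant strong gene of bulb was Crpow_TRINITY_DN167_c0_g1, assembled with 9 isoforms. It had 3520, 3400 and 2280 CPM in bulb replicates 1 to 3 and 104 and 252 CPM in root replicates 1 and 3, on TMM-scaled library sizes. Its log2 fold change was -4.11 (SE 0.40, adjusted p = 7.49e-06), and it was -3.66 without root replicate 1 and -4.82 without root replicate 3. On a scale that corrects for length it had 4710 to 6580 TPM, the usual length-corrected unit, in bulb and 170 and 432 TPM in root. Salmon assigned it more reads, with 2740 to 3860 CPM in bulb and 126 and 288 CPM in root by library total. By that measure, on the counts used elsewhere here, the basal plate had 281 to 321 CPM, above the 92.2 and 198 CPM of root. Callus in light with 2 mg/L had 854 to 1640 CPM, while every other callus library had 42.4 to 69.4 CPM, near the 54.6 to 70.5 CPM of leaves. Isoforms can share sequence, and the leading isoform held 49.8% of the gene's counts in bulb and 37.9% in root.

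**Figure D4:**
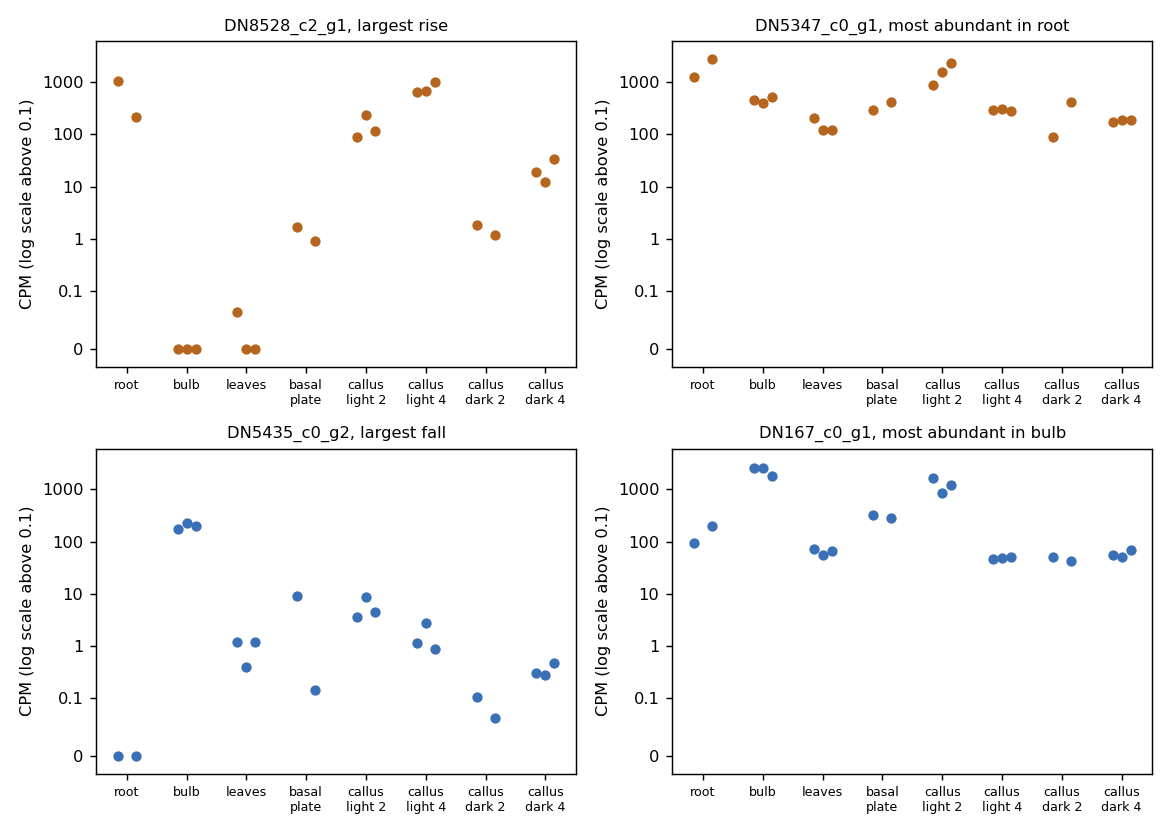
Level of the 4 named genes in each of the 21 libraries in CPM by library total, on an axis that is linear below 0.1 and logarithmic above; each point is 1 library, and callus groups are given by light regime and mg/L of 2,4-D. Root and bulb points do not overlap for any of the 4 genes, and callus in light with 4 mg/L reaches 652 to 1020 CPM for the largest rise, where the bulb libraries have 0.

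Few genes were present in only one of these organs. A gene was counted as found in root but not in bulb when it had at least 1 CPM in both root libraries and 0 counts in all 3 bulb libraries, where 3 counts would be 0.0718 to 0.102 CPM. There were 102 such genes, 0.358% of the 28484 genes found throughout root. Conversely, 55 genes had at least 1 CPM in all bulb libraries and 0 counts in both root libraries, 0.206% of the 26706 genes found throughout bulb. A count of 0 allows up to 3 counts in each library, which covers counting error only. The first count was 172 without root replicate 1 and 225 without root replicate 3, and the second was 110 without root replicate 3.

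The 102 genes had a median of 4.22 CPM in root, 13 reached 10 CPM in both root libraries, and the 3 highest made up 64.7% of their summed level. The 55 genes had a median of 3.91 CPM in bulb, and 13 reached 10 CPM in all bulb libraries. By salmon, 91 of the 102 also had 0 counts in all bulb libraries, and 49 of the 55 had 0 counts in both root libraries.

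Most genes found in root but not in bulb had some counts elsewhere, but few reached 1 CPM throughout leaves or basal plate. Of the 102 genes found in root but not in bulb, 64 had 0 counts in all 3 leaf libraries and 13 in both basal plate libraries. Among all tested genes these shares were 1.87% and 0.769%. Only 9 of the 102 had 0 counts in all 5 of these libraries, and 2 in all 16 libraries outside root and bulb. At the level of 1 CPM in every library of a group, 3 were found in leaves and 7 in the basal plate. In at least 1 of the 4 callus groups 55 of the 102 were found (53.9%), against 38.7% of all tested genes and 92.3% of genes averaging at least 1 CPM in root and bulb. In light 49 (48.0%) were found at 4 mg/L and 35 (34.3%) at 2 mg/L, and in darkness 30 (29.4%) at 4 mg/L and 26 (25.5%) at 2 mg/L. Of all tested genes, 30.4% to 34.5% were found in each callus group, 32.8% in leaves and 33.0% in the basal plate. The counts in darkness lay below this background. Of genes averaging at least 1 CPM in root and bulb, 85.2% to 86.9% were found in each callus group. In leaves 83.1% of them were found, and in the basal plate 89.1%. Against this second background the 102 genes were found less often in every group. Of the 55 genes found in bulb but not in root, 14 (25.5%) were found in leaves, 3 in the basal plate and 21 (38.2%) in callus in light with 2 mg/L, but 4 to 6 in each of the other callus groups.

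Strong genes took a small part of each organ's library. The 2122 strong genes higher in root took 8.84% and 4.92% of the counts in root replicates 1 and 3, and 0.624% to 0.727% in the bulb libraries. The 948 strong genes lower in root took 3.15% to 3.35% of the counts in bulb and 0.293% and 0.413% in root replicates 1 and 3. Since the genes were chosen on these libraries, the shares are a description and carry no test. The share was spread over many genes. A total of 83 genes made up 50% of the share in root, and the 10 most abundant 17.0%. In bulb 29 genes made up 50%, and the 10 most abundant 28.1%. All called genes went further. Those higher in root took 16.2% and 10.3% of the root libraries and those lower in root took 16.4% to 17.1% of the bulb libraries.

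The other libraries were then examined, and the patterns to count were picked after the values were seen. Callus had no part in the choice of genes, while leaves and basal plate took part in the filter and in the estimate of spread. Genes strong in root took 0.86% to 0.975% of leaf libraries and 1.32% and 1.7% of the basal plate libraries. In callus they took 4.07% to 10.1%, with 8.7% to 10.1% at 4 mg/L and 6.29% to 6.77% at 2 mg/L in light. In darkness the shares were 4.86% to 4.99% at 4 mg/L, and 4.07% and 4.26% at 2 mg/L. Every callus library thus lay above every leaf and basal plate library, although callus was raised from bulb. Without the 10 most abundant genes of the list, an alternative chosen after the data were seen, callus took 3.78% to 9.38%, leaves 0.792% to 0.885% and the basal plate 1.16% and 1.53%.

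**Figure D5:**
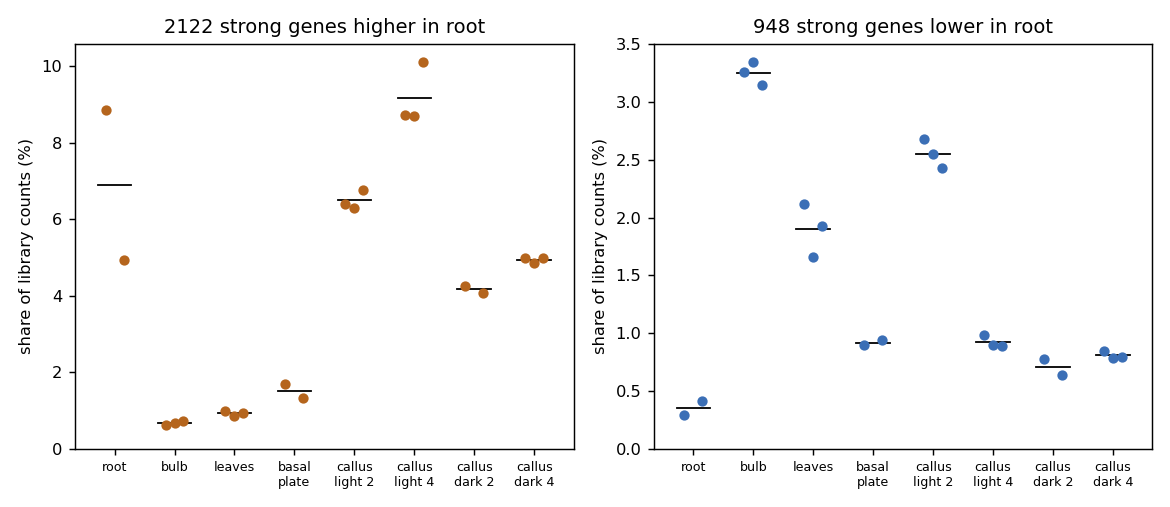
Share of each library's counts, in percent, taken by the 2122 strong genes higher in root (left) and the 948 strong genes lower in root (right); each point is 1 library, bars are group means, and callus groups are given by light regime and mg/L of 2,4-D. Genes strong in root take 4.07% to 10.1% of callus libraries against at most 1.7% of leaf and basal plate libraries, and genes strong in bulb take 2.43% to 2.68% of callus in light with 2 mg/L against at most 0.984% in other callus.

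Counted gene by gene, the pattern was of the same kind. For 503 of the 2122 genes strong in root (23.7%), every callus library lay above every leaf and basal plate library. This held for 3.57% of all tested genes and for 7.99% of genes averaging at least 1 CPM in root and bulb. Because both tissue and isolation method differ between these groups, the part of either cannot be told apart. The 2 basal plate libraries differ from each other, and without replicate 2 the count was 586 (27.6%) against 4.83% of the tested genes and 9.61% of genes averaging at least 1 CPM. The reverse order was found for 61 genes strong in root (2.87%) against 7.25% of the tested genes and 10.4% of genes averaging at least 1 CPM.

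Light-grown and dark-grown callus shared 1 isolation method. For 530 of the genes strong in root (25%), all 6 light-grown libraries lay above all 5 dark-grown libraries, against 5.14% of all tested genes and 11.8% of genes averaging at least 1 CPM. For 252 (11.9%) the order was reversed, against 7.16% and 16.9%. The median level of genes strong in root was 4.75 CPM in callus in light with 4 mg/L, 2.52 to 2.89 CPM in the other callus groups, 1.64 CPM in the basal plate, 0.607 CPM in leaves and 0.408 CPM in bulb.

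Among the other organs, the genes strong in root leaned to the basal plate. Both basal plate libraries lay above every leaf library for 1066 of them (50.2%), against 22.2% of all tested genes and 32.9% of genes averaging at least 1 CPM. Every leaf library lay above both basal plate libraries for 253 (11.9%), against 20.9% and 20.0%.

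Genes strong in bulb took 1.66% to 2.12% of leaf libraries and 0.9% and 0.937% of the basal plate libraries. In callus they took 2.43% to 2.68% in light with 2 mg/L, but 0.635% to 0.984% in the other 8 libraries. For 369 of the 948 (38.9%), all 3 callus libraries in light with 2 mg/L lay above the other 8 callus libraries, against 7.85% of all tested genes and 15.3% of genes averaging at least 1 CPM. The reverse was found for 84 (8.86%), against 11.4% and 18.9%. Light-grown callus lay above dark-grown callus for these genes too: all 6 light-grown libraries were above all 5 dark-grown ones for 161 (17.0%), against 5.14% and 11.8%. The median log2 ratio of light-grown to dark-grown callus, with 0.1 CPM added, was 0.43 for genes strong in bulb and 0.42 for genes strong in root. Every callus library lay above every leaf and basal plate library for 33 of the genes strong in bulb (3.48%), against 3.57% of all tested genes and 7.99% of genes averaging at least 1 CPM. Every callus library lay below all of them for 148 (15.6%), against 7.25% and 10.4%. Tissue and isolation method again cannot be told apart in these counts.

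Genes that the assembler placed in the same component may be close copies or parts of each other. Crinum x powellii is a hybrid, as its name states, so that copies from both parents may be assembled apart. A component had at least 2 called genes in 300 cases, although 2253 called genes shared one with another tested gene. Of these 300 components, 157 held only genes higher in root, 85 only genes lower in root and 58 (19.3%) held both. Of the 109 components with at least 2 strong genes, 14 (12.8%) held both a gene strong in root and a gene strong in bulb. Those 2253 genes made up 26% of the called and 23.3% of all tested genes, and reads of such genes could have been split between copies.

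Genes strong in bulb had a shorter median length than those strong in root, a difference given here with no test. The effective length was read from the ratio of estimated count to TPM, in isoforms with at least 10 counts, and set relative to the median of the library. Its median was 0.772 for genes strong in bulb, 1.025 for genes strong in root and 1.02 for tested genes averaging at least 1 CPM. Over all tested genes the median was 0.787, near that of genes strong in bulb. A single isoform was assembled for 34.2% of the genes strong in bulb and 25.9% of those strong in root. This share was 22.9% of the tested genes averaging at least 1 CPM and 39.7% of all tested genes.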

How the data were processed

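Expression was measured by RNA-seq, and the authors deposited estimated counts and TPM per isoform on a transcriptome assembled for the species. Per the submitters' processing notes, fastp 0.23.4, kallisto 0.46.1 and Salmon 1.4.0 were used; 1 set of deposited tables carries the name of salmon and the other carries no tool name. Other settings: not given in the sources used here. Because the deposited gene table named as counts holds rescaled TPM, the estimated counts per isoform without a tool name were summed over 676992 genes and rounded. Total counts per library were 29530780 to 41784068 in the 5 libraries compared, and intervals or floors cover counting error only.

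The 10 organ libraries were fitted together with edgeR 4.0.16 in R 4.3.3 (quasi-likelihood test, TMM scaling, filterByExpr, 100919 genes, Benjamini-Hochberg adjustment, FDR under 0.05), with the contrast root minus bulb. The procedure was tested on simulated data. Presence and shares used CPM by library total. The members, lists and rules were chosen with earlier results of these data known. Named genes are, in each direction, the strong gene with the largest fold change among those that reach 10 CPM throughout the higher organ and, of the rest, the one with the highest mean CPM. Alternatives were RLE factors, library totals, other filters, DESeq2 1.42.0, limma 3.58.1 on the deposited TPM after adding 1 or 0.1 and taking log2, salmon counts, fewer libraries, a replicate block and other limits.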

Additional observations from a re-analysis of the deposited data

How the results depend on the processing

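More genes were higher than lower in root under every alternative run. All 4 named genes stayed called in their direction in 20 of 20 alternatives, with adjusted p of at most 0.0225. Counts of called genes were 5880 to 13110 across the alternatives that kept all root and bulb libraries. Leaving out 1 organ library gave 4092 to 13110 called genes, 2413 to 7670 higher, 1679 to 5440 lower, 1633 to 2938 strong genes higher and 769 to 1190 lower in root. With limma on log2(TPM + 1) the genes lower in root numbered 1747 and the strong genes 1263 and 501, and on log2(TPM + 0.1) 2018 were lower. DESeq2 called 11236 genes. Strong genes numbered 3485 higher and 2263 lower at 2-fold, and 777 and 336 at 16-fold. The cause of these moves was not tested, except that a stricter fold keeps fewer genes by construction. The list of genes higher in root took 12.2% and 2.6% of root and 2.47% and 0.0501% of bulb at 2-fold and 16-fold, and 0.567% of bulb by TPM. The list of genes lower in root took 5.04% and 0.0396% of root and 14.1% and 1.37% of bulb at those limits, and 4.01% of bulb by TPM. Without the 10 most abundant members, chosen after the data were seen, the first took 0.514% of bulb, and the second 0.264% of root and 2.34% of bulb. Genes found in root but not in bulb numbered 200 at 0.5 CPM, 29 at 5 CPM and 237 with up to 3 counts allowed as absent; in the other direction these were 105, 23 and 114. Leaving out 1 library gave 124 to 225 and 56 to 110.

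Both organs carry replicates 1 and 3, which the labels do not tie to a shared plant. With the replicate block 6621 genes were called, 3943 higher and 2678 lower in root. The deviations of same-numbered libraries from their group means had correlations of -0.000771 and -0.153. Both root libraries deviate from their mean by equal and opposite amounts, so values for one root library mirror those for the other. For bulb replicate 3 the correlation was -0.153 with root replicate 3 and 0.153 with root replicate 1. The check therefore cannot decide whether same-numbered libraries were paired.

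The design limits what can be read: root has 2 libraries that differ from each other, the test of single values cannot fall below 0.2, and genes under 0.1 CPM were called in 0.695% of cases.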
